A study of Mus musculus with 10 samples.

Results

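The C/EBP factors and the PAR bZIP factors are transcription factors that bind DNA as dimers through a basic region and a leucine zipper. This account follows 9 of their genes (Cebpa, Cebpb, Cebpd, Cebpg, Ddit3, Hlf, Dbp, Tef and Nfil3) among the 36144 genes of an RNA table, and 11 binding motifs of the same factors among the 879 motifs of a chromatin footprint table. The genes were taken by symbol and the motifs by name (any motif name part that starts with CEBP or equals HLF, DBP, TEF or NFIL3), and the rule used no threshold on a measured value, although the family was picked with earlier results of these data known. All 9 genes were expressed highly enough to be tested, which required 1 TPM (transcript abundance per length, scaled to a fixed library total) or more on average across the 6 RNA libraries.

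The cells were primary vascular smooth muscle cells grown from the aortic media of male mice aged 8 weeks and used between passages 2 and 7. The transgenic genotype overexpresses Adamts7, a secreted metalloprotease of the extracellular matrix, with the smooth muscle driver Myh11-Cre-ERT2, and the mice set against it are labelled wild type with no driver named, so driver and overexpression cannot be told apart. This Cre needs tamoxifen, for which the sources used here give no dosing. RNA came from 3 overexpression and 3 wild-type mice, and open chromatin was profiled by ATAC-seq with 50000 cells per reaction in 2 mice per genotype, whose scores were pooled. All libraries share 1 batch label.

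C/EBP proteins dimerise with each other and with related zipper proteins. C/EBP alpha is known for myeloid and adipocyte differentiation, C/EBP beta and delta for inflammatory and acute-phase responses, C/EBP gamma as a partner without a strong activation domain of its own, and the Ddit3 product CHOP as the stress-induced member whose altered basic region keeps many of its dimers from classical C/EBP sites. The PAR bZIP proteins HLF, DBP and TEF are activators under circadian control, and NFIL3 (E4BP4) represses through the same sites; vascular smooth muscle has a working clock of its own.

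The labelled cell type was checked against marker genes. All 13 smooth muscle genes reached the filter, with summed levels of 5009 to 6856 TPM in overexpression libraries and 4274 to 4425 TPM in wild-type libraries. The 18 endothelial genes summed to 3157 to 5332 TPM in overexpression libraries and 6309 to 6888 TPM in wild-type libraries, so in wild type the endothelial sum exceeded the smooth muscle sum. The 23 macrophage and leukocyte genes summed to 1313 to 4188 TPM in overexpression libraries and 603 to 875 TPM in wild-type libraries. Adamts7 itself stood at 84.5 ± 12.4 TPM in overexpression cells and 6.82 ± 1.20 TPM in wild-type cells (SD, n = 3 each), without overlap. The overexpression libraries differed among themselves. On principal component 1, replicates 1, 2 and 3 had 18.6, 39.4 and -0.67, against -20.3 to -16.8 for the wild-type libraries. Replicate 3 thus lay nearest wild type on this component. On principal component 2 the 3 had -23.4, 16.2 and -3.16, so replicates 1 and 2 also lay far from each other. Sequencing depth is unknown, since TPM keep no read number.

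Promoters of 8 of the 9 genes were matched in RefSeq (GRCm38.p6). The 250 bases before the start are shown for Cebpa, Ddit3 and Hlf, the members whose libraries did not overlap between genotypes, and for Tef, the most abundant PAR factor. The capitals mark matches, on either strand, to TTGCNNAA (C/EBP), TGATGNAA (the C/EBP-ATF element), TTACNTAA (PAR and NFIL3), CACGTG (the E-box of clock factors), TGACTCA (AP-1), TGACGTCA (the cyclic AMP response element), CCAAT and TATAAA.
Cebpa, chr7:35119043-35119292, plus strand: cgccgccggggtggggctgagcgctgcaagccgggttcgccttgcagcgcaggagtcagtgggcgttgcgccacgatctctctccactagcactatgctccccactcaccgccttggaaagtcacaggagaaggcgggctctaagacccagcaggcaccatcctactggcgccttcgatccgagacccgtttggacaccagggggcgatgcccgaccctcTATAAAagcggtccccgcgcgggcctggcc
Ddit3, chr10:127290543-127290792, plus strand: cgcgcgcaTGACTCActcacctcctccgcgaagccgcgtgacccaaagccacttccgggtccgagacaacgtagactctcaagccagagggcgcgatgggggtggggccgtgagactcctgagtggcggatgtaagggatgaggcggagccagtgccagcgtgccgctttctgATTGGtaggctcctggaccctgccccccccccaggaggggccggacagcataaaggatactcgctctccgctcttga
Hlf, chr11:90390918-90391167, minus strand: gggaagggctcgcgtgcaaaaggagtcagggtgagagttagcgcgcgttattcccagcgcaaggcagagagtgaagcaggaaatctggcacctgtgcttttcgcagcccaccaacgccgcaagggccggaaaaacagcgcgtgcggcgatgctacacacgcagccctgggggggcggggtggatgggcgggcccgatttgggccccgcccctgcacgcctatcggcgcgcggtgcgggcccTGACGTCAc
Tef, chr15:81802423-81802672, plus strand: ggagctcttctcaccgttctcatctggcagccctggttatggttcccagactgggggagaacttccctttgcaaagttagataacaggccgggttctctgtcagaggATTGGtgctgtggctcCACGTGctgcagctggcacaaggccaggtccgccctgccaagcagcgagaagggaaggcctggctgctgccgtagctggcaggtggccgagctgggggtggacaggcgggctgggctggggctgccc

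The Cebpa window held TATAAA beginning 30 bases before the start. The Ddit3 window held TGACTCA at 242 bases and a reversed CCAAT at 77 bases. The Hlf window held TGACGTCA at 9 bases, next to the start. The Tef window held CACGTG at 127 bases and a reversed CCAAT at 143 bases, and the window of another Tef start, chr15:81811164-81811413, also held CACGTG and CCAAT. The windows of Cebpg, Dbp and Nfil3 held CCAAT, and that of Cebpb held no match. Matches of different motifs shared no base in these windows. No window of the 8 genes held TTGCNNAA, TGATGNAA or TTACNTAA, which says only that these letters are not there. Of all 32851 windows of this length, 9.56% held TTGCNNAA, 3.45% TGATGNAA, 2.06% TTACNTAA, 6.02% CACGTG, 4.46% TGACTCA, 1.55% TGACGTCA, 33.8% CCAAT and 12.4% TATAAA.

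In level, Cebpb and Tef were the leading members in both genotypes. By mean TPM, which is a level per transcript length, the overexpression order was Cebpb, Tef, Ddit3, Dbp, Cebpg, Cebpd, Nfil3, Cebpa and Hlf, and the wild-type order was Tef, Cebpb, Ddit3, Dbp, Cebpg, Cebpd, Nfil3, Hlf and Cebpa. Within overexpression libraries the ranges overlapped for Cebpb and Tef, for Dbp and Cebpg, and for Nfil3 and Cebpa. Within wild-type libraries they overlapped for Tef and Cebpb, for Dbp and Cebpg, and for Hlf and Cebpa. All other neighbours in the order lay apart in every library of the genotype. Summed over Cebpa, Cebpb, Cebpd, Cebpg and Ddit3, the C/EBP genes had 146 ± 12.0 TPM in overexpression cells and 128 ± 9.72 TPM in wild-type cells (SD, n = 3 each), and a two-sided exact permutation test gave p = 0.2.

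**Figure D1:**
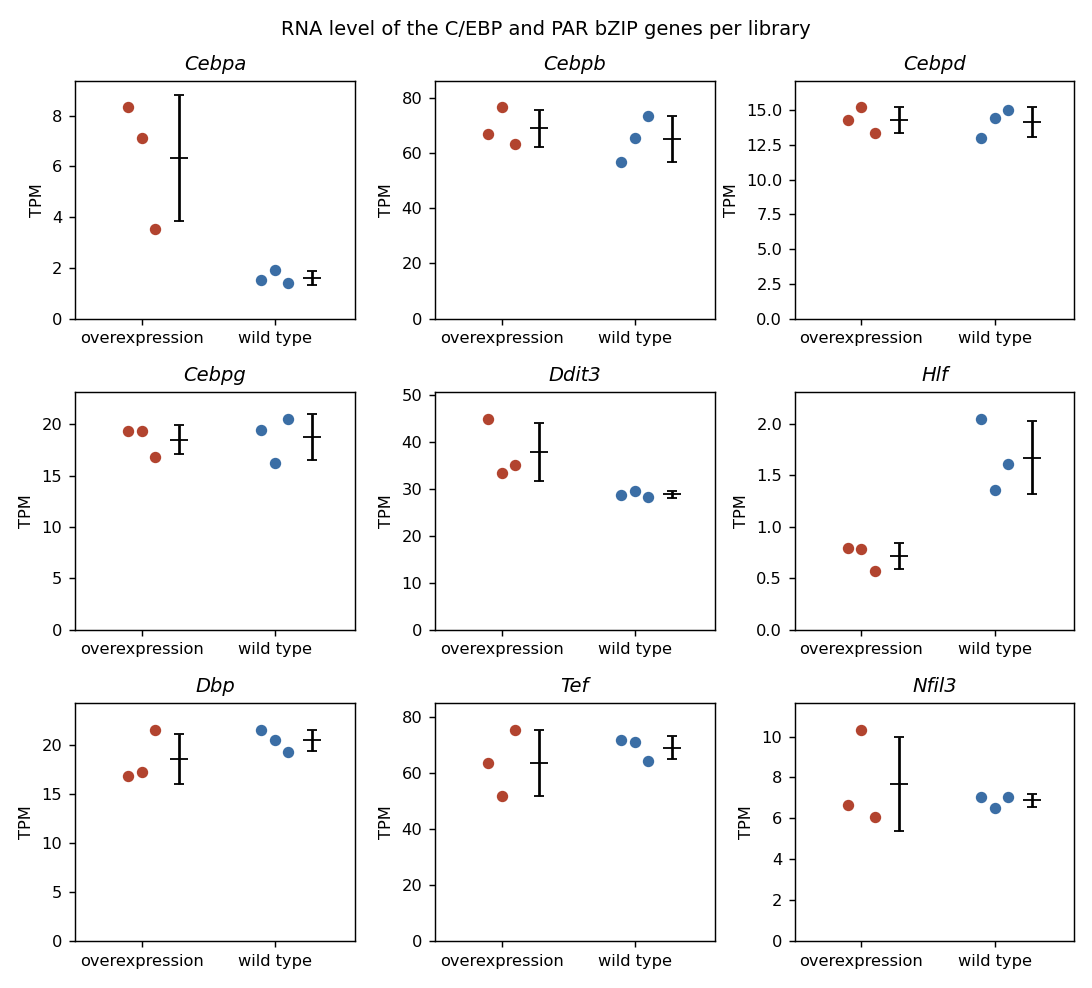
TPM of each of the 9 genes per library, with overexpression in red at the left, wild type in blue at the right, and the mean ± SD (n = 3 each) in black beside the points. Cebpa and Ddit3 lie higher in every overexpression library and Hlf lower, while the other 6 genes overlap.

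No member passed limma's threshold, an adjusted p of 0.05 over all 13131 genes tested, where the background was 2 genes called, 0.0152%. Cebpa, Ddit3 and Hlf were the 3 members of 9 (33.3%) whose libraries did not overlap between genotypes, against 27.2% of all genes tested, and the same 3 had an unadjusted p under 0.05, against 19.5%. The members' shares were therefore near the background. The median log2 fold change of the 9 genes was 0.013, against -0.0090 over all genes tested. With 3 libraries against 3, an exact permutation test cannot go below p = 0.1, and these 3 genes reached that value.

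Cebpa, the myeloid and adipogenic member, had the largest difference of the family. It stood at 8.32, 7.12 and 3.53 TPM in overexpression replicates 1, 2 and 3, against 1.53, 1.92 and 1.39 TPM in the wild-type libraries. Every overexpression library was above every wild-type library, and replicate 3 was the lowest of them. The mean was 3.92 times as high, 6.32 ± 2.49 TPM in overexpression cells and 1.61 ± 0.27 TPM in wild-type cells (SD, n = 3 each). The log2 fold change, on the log2(TPM + 1) scale, where changes of low genes come out too small, was 1.43 ± 0.27 (SE, 95% interval 0.79 to 2.06), with a limma adjusted p of 0.128. Its share of the summed C/EBP TPM was 4.26 ± 1.42% in overexpression cells and 1.26 ± 0.25% in wild-type cells (SD, n = 3 each). Without overexpression replicate 3, limma called Cebpa, with a log2 fold change of 1.74 and an adjusted p of 0.00325, in a fit that called 6.3% of all genes. With array weights, which weight each library by how well it fits its group, limma also called it, with 1.73 and an adjusted p of 0.00573, where 20.8% of all genes were called. The adjusted p over all alternatives ranged from 0.00325 to 0.354.

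The overexpression libraries with more Cebpa also held more macrophage RNA. As log2 distance from the mean of wild type, their median came to 2.12, 1.97 and 0.64 in overexpression replicates 1, 2 and 3, whereas the wild-type libraries lay between -0.24 and 0.19. All 22 tested macrophage genes were higher, against 6340 of all 13131 genes tested. Of the 22, 20 were higher without overlap, against 14.3% of all genes tested. The list median log2 fold change was 1.56, and no gene of the list was at 0 in all libraries. Cd163, a scavenger receptor of resident macrophages, stayed at 0.051 TPM or less in every library. Divided by the geometric mean of the 22 genes, Cebpa came to 0.123, 0.130 and 0.153 in overexpression replicates 1, 2 and 3, against 0.133, 0.114 and 0.0942 in the wild-type libraries. These ratios, chosen after the values were seen, overlapped between genotypes. Divided by the smooth muscle genes in the same way, Cebpa came to 0.0419 to 0.0801 in overexpression libraries and 0.0200 to 0.0260 in wild-type libraries, without overlap. Divided by the endothelial genes, Cebpa came to 0.0329 to 0.106 in overexpression libraries and 0.0104 to 0.0157 in wild-type libraries, also without overlap. In bulk RNA, a change in the number of cells of a type and a change in RNA per cell cannot be told apart.

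**Figure D2:**
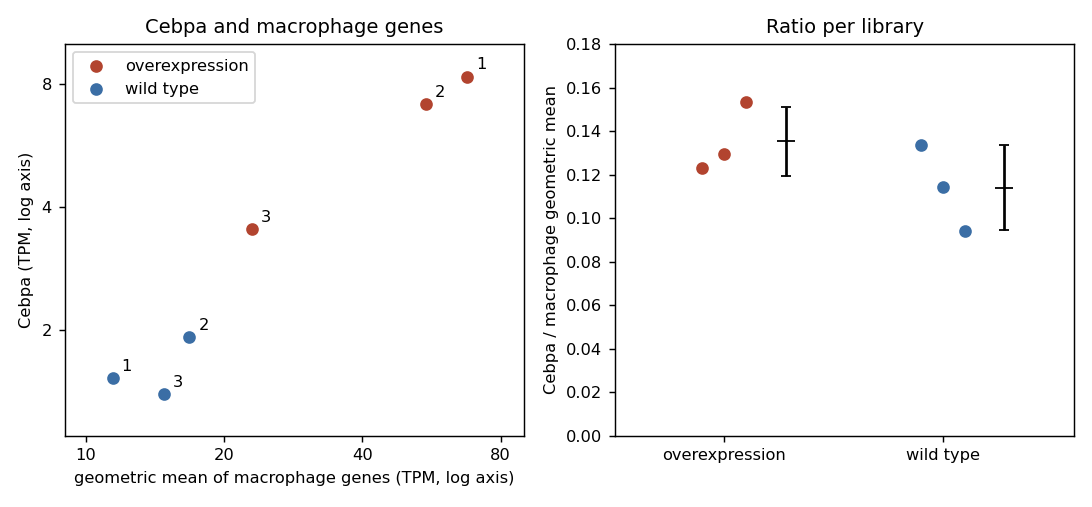
Left, Cebpa against the geometric mean of 22 macrophage genes in each library (TPM, both axes logarithmic, points numbered by replicate); right, the ratio of the 2 values per library with mean ± SD (n = 3 each). Cebpa follows the macrophage genes, with overexpression replicate 3 between the others and wild type, and the ratios overlap at 0.123 to 0.153 in overexpression and 0.0942 to 0.133 in wild type.

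Spi1, chosen after its values were seen, encodes the myeloid factor PU.1 that works with C/EBP alpha; it had 33.6, 31.2 and 9.89 TPM in overexpression replicates 1, 2 and 3 against 6.96, 8.46 and 7.35 TPM in wild type. The genes whose log2 values followed Cebpa most closely over the 6 libraries were Fabp5, a fatty acid-binding protein gene (Pearson r = 0.998), and Nfam1, an immune receptor gene (r = 0.997). Of the tested genes other than predicted models, 313 had an r above 0.95 with Cebpa, against 8 to 119 for the other members. The libraries differ in genotype and macrophage RNA, which such values share.

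Cebpb was abundant and did not differ beyond its spread. It stood at 66.9, 76.5 and 63.2 TPM in overexpression libraries, against 56.6, 65.5 and 73.4 TPM in wild-type libraries. The ranges overlapped, and the log2 fold change was 0.082 ± 0.11 (SE, 95% interval -0.18 to 0.35). Cebpd, its inflammatory companion, stood at 14.3, 15.2 and 13.3 TPM in overexpression libraries, against 13.0, 14.5 and 15.0 TPM in wild-type libraries. Its log2 fold change was 0.013 ± 0.094 (SE, 95% interval -0.21 to 0.23). Cebpg stood at 19.3, 19.4 and 16.9 TPM in overexpression libraries, against 19.5, 16.2 and 20.6 TPM in wild-type libraries. For all 3 genes the values interleaved, and the sign of the log2 fold change turned in some alternatives. Cebpe, a granulocyte member outside the list of 9, was listed at 0 in 5 of 6 libraries and at 0.24 TPM in overexpression replicate 1.

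Ddit3 RNA, which encodes CHOP, was higher in each overexpression library but did not pass. It stood at 44.9, 33.3 and 35.1 TPM in overexpression libraries, against 28.6, 29.6 and 28.2 TPM in wild-type libraries. The overexpression libraries lay above all wild-type ones, and replicate 1 was the highest. The ratio of means was 1.31, and the log2 fold change was 0.37 ± 0.11 (SE, 95% interval 0.10 to 0.64), with a limma adjusted p of 0.165. With array weights, limma called it with 0.57 and an adjusted p of 0.0073, in a fit that called 20.8% of all genes. The limma adjusted p of Ddit3 ranged from 0.0073 to 0.378 over the alternatives. Without overexpression replicate 1 the log2 fold change was 0.24, with a limma adjusted p of 0.309. Divided by the geometric mean of the smooth muscle genes, which were also higher (median log2 fold change 0.46), Ddit3 came to 0.432, 0.295 and 0.416 in overexpression libraries, against 0.375, 0.401 and 0.437 in wild-type libraries, and the ratios overlapped. Over the endothelial genes the Ddit3 ratios were 0.327 to 0.508 in overexpression libraries and 0.211 to 0.242 in wild-type libraries, higher without overlap. Over the macrophage genes they were 0.607 to 1.53 in overexpression libraries and 1.76 to 2.50 in wild-type libraries, lower without overlap. The symbol is paired with 2 Ensembl identifiers in 1 row, and the gene overlaps Mbd6 and Mars1 at its ends. Mbd6 had 15.8 ± 0.75 TPM in overexpression cells and 20.2 ± 0.84 TPM in wild-type cells (SD, n = 3 each), and the row Mars had 42.0 ± 1.57 TPM in overexpression cells and 44.3 ± 2.70 TPM in wild-type cells. Ddit3 was followed most closely by Plin2, a lipid droplet coat gene (r = 0.988), and Fbxw10 (r = 0.986).

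The integrated stress response, in which ATF4 induces Ddit3, was read from a list of 42 further genes, of which 39 were tested. None passed over all genes tested. At an unadjusted p under 0.05, 10 of the 39 were higher, a larger share than the 10.6% of all genes. At that p, 2 of the 39 were lower, a smaller share than the 8.94% of all genes. Without overlap, 9 of the 39 were higher, against 14.3% of all genes, and 3 were lower, against 12.9%. The list median was 0.044, against -0.0090 over all genes tested. Of the 39, 27 had a positive log2 fold change, against 6340 of all 13131 genes tested. Atf4 itself, chosen after its values were seen, overlapped, with 142 ± 16.3 TPM in overexpression cells and 137 ± 7.09 TPM in wild-type cells (SD, n = 3 each). Atf3, a stress factor gene that dimerises with C/EBP partners, had 13.5 ± 1.38 TPM in overexpression cells and 8.94 ± 0.99 TPM in wild-type cells (log2 fold change 0.55 ± 0.12 SE, limma adjusted p = 0.131). Mthfd2, of mitochondrial folate metabolism, had 27.5 ± 3.56 TPM in overexpression cells and 19.8 ± 0.82 TPM in wild-type cells (0.45 ± 0.10 SE, limma adjusted p = 0.131). Nupr1, a stress-induced chromatin protein gene, had a log2 fold change of 0.18, and the seryl-tRNA synthetase gene Sars 0.0083. The remaining genes higher at an unadjusted p under 0.05, named after their values were seen, were Psat1, Nars, Vldlr, Ddit4, Slc7a5, Aldh1l2 and Eif2s1. The 2 lower genes, also named after their values were seen, were Ppp1r15a, a CHOP target that ends the response, with -0.20, and the arginine transporter gene Slc7a1, with -0.24.

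Other genes tied to C/EBP activity gave mixed values. Of 12 tested regulators, 1 was higher and 1 lower at an unadjusted p under 0.05, near the background of 10.6% and 8.94%, with a median log2 fold change of 0.030. They were Id2, an inhibitor of helix-loop-helix factors, with 134 ± 13.7 TPM in overexpression cells and 113 ± 1.44 TPM in wild-type cells, and Zfpm1, the GATA cofactor FOG1, with 37.0 ± 13.3 TPM in overexpression cells and 56.6 ± 1.52 TPM in wild-type cells (SD, n = 3 each). Cop1, the ubiquitin ligase that degrades C/EBP alpha with Tribbles proteins, had a log2 fold change of 0.056. Of 12 tested acute-phase and cytokine genes, 3 were higher, against 10.6% of all genes, and 2 lower, against 8.94%, at an unadjusted p under 0.05, with a median of 0.0085. The lower ones were the chemokine gene Ccl2, with -0.57, and the ceruloplasmin gene Cp, with -0.60. The higher ones, named after their values were seen, were Ptx3 with 0.92, Tnf with 0.90 and Il1rn with 0.82, and Tnf and Il1rn overlapped between genotypes. Tnf, with 2.98, 2.62 and 0.48 TPM in overexpression replicates 1, 2 and 3 and a mean of 0.486 TPM in wild type, passed the filter only through the overexpression libraries. Il1rn stood at 3.93, 4.81 and 1.41 TPM in overexpression replicates 1, 2 and 3, against 1.04 to 1.67 TPM in wild type. Macrophage markers were likewise lowest in replicate 3 among the overexpression libraries, and their part was not tested. Ptgs2, an abundant member, had 0.071.

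In the adipogenic cascade that C/EBP beta, delta and alpha drive in fat cells, 5 of 16 tested genes were higher, against 10.6% of all genes, and 2 lower, against 8.94%, at an unadjusted p under 0.05, with a median of 0.14. Cd36, a fatty acid and lipoprotein receptor, had 24.0 ± 9.56 TPM in overexpression cells and 6.80 ± 0.82 TPM in wild-type cells, and Fabp4, a fatty acid-binding protein, 14.3 ± 3.06 TPM in overexpression cells and 7.51 ± 1.23 TPM in wild-type cells (SD, n = 3 each). Lpl, Klf4 and Plin2, named after their values were seen, were the other higher ones, with log2 fold changes of 1.57, 0.70 and 0.16. Cd36 stood at 33.1, 24.9 and 14.0 TPM and Lpl at 84.6, 54.7 and 29.3 TPM in overexpression replicates 1, 2 and 3, the replicate order of the macrophage list medians (2.12, 1.97 and 0.64 log2 units above wild type), whose part was not tested. The lower ones were the lipase genes Pnpla2, with -0.44, and, named after its value was seen, Lipe, with -0.55. Scd1, an abundant desaturase gene, had -0.018. Of 8 adipocyte markers only Fabp4 reached the filter, and of 6 hepatocyte markers none did.

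Of 23 myeloid C/EBP targets, 12 reached the filter. All 12 were higher, against 6340 of all 13131 genes tested, with a median of 1.42. Of the 12, 10 had an unadjusted p under 0.05, against 10.6% of all genes higher at that p. Among the targets under the filter, named after their values were seen, Ltf, Mpo, Gfi1 and Ngp had lower means in overexpression cells. Csf3r and Cd163 had higher means there, and S100a8 and Arg1 had nearly equal ones. Lyz2, lysozyme, had 1348 ± 704 TPM in overexpression cells and 246 ± 49.2 TPM in wild-type cells, and Ncf1, an NADPH oxidase subunit, 13.5 ± 6.35 TPM in overexpression cells and 3.37 ± 0.28 TPM in wild-type cells (SD, n = 3 each). Csf2ra, a cytokine receptor chain, had 0.26. The neutrophil granule genes Elane, Camp and S100a9, named after their values were seen, were listed at 0 in all 6 libraries. This list shares 6 genes with the macrophage markers, whose median was 1.56, and the part of macrophage RNA in it was not tested.

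**Figure D3:**
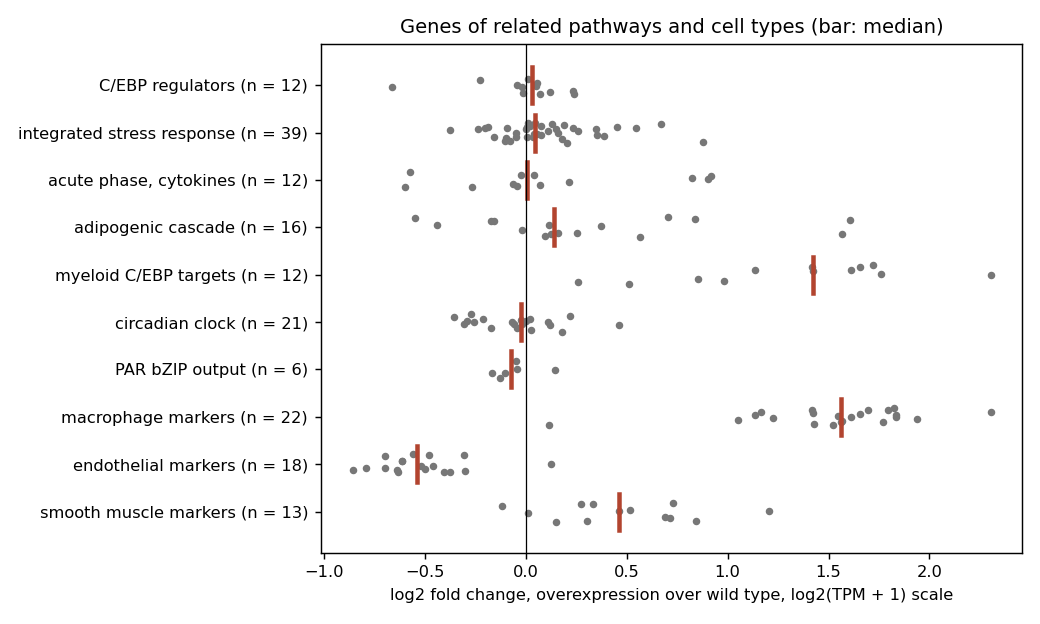
Log2 fold change of every tested gene in 10 lists (grey points, overexpression over wild type on the log2(TPM + 1) scale), with the list median as a red bar and the number tested in brackets. Myeloid C/EBP targets and macrophage markers lie to the right, with medians of 1.42 and 1.56, and the stress response, clock and regulator lists centre near 0.

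Hlf was the PAR factor that was lower in each overexpression library. It stood at 0.79, 0.79 and 0.57 TPM in overexpression libraries, against 2.05, 1.36 and 1.61 TPM in wild-type libraries. The groups did not overlap, but all levels were low. The mean was 0.717 TPM in overexpression cells and 1.67 TPM in wild-type cells, so Hlf passed the filter of 1 TPM only through wild type, where it was higher, and its test supports nothing by itself. The ratio of means was 0.429, and the log2 fold change was -0.63 ± 0.19 (SE, 95% interval -1.07 to -0.20), with a limma adjusted p of 0.154. With a pseudocount of 0.1 in place of 1 the log2 fold change was -1.11, with an adjusted p of 0.156. With array weights, limma called Hlf with -0.54 and an adjusted p of 0.0331, in a fit that called 20.8% of all genes. The limma adjusted p of Hlf ranged from 0.0331 to 0.363 over the alternatives. The endothelial markers also ran lower in overexpression cells, by a median of -0.54 on the log2 scale. Of the 18 markers, 14 did so without overlap, against 12.9% of all genes tested. Divided by the geometric mean of the 18 endothelial markers, Hlf came to 0.00895, 0.0117 and 0.00534 in overexpression libraries. It came to 0.0173, 0.0111 and 0.0120 in wild-type libraries, and these ratios overlapped. Over the smooth muscle genes the Hlf ratios were 0.00679 to 0.00761 in overexpression libraries and 0.0184 to 0.0269 in wild-type libraries, without overlap. Over the macrophage genes they were 0.0117 to 0.0249 in overexpression libraries and 0.0808 to 0.179 in wild-type libraries, also without overlap. Such ratios were taken only for Cebpa, Ddit3 and Hlf, the members whose libraries did not overlap.

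The abundant PAR factors were near wild type. Tef stood at 63.6, 51.8 and 75.3 TPM in overexpression libraries, against 71.7, 70.9 and 64.1 TPM in wild-type libraries. Overexpression replicate 2 was the lowest and replicate 3 the highest of all, so the groups overlapped, with a log2 fold change of -0.13 ± 0.13 (SE, 95% interval -0.44 to 0.18). Dbp stood at 16.9, 17.3 and 21.5 TPM in overexpression libraries, against 21.6, 20.5 and 19.3 TPM in wild-type libraries. Overexpression replicate 3 lay within the wild-type range and the other overexpression libraries below it, and the log2 fold change was -0.14 ± 0.11 (SE, 95% interval -0.40 to 0.11). Without overexpression replicate 3 it was -0.25, and without replicate 1 -0.080. Tef made 76.6 ± 2.15% of the summed PAR TPM in overexpression cells and 75.7 ± 0.67% in wild-type cells, Dbp 22.5 ± 2.01% in overexpression cells and 22.5 ± 0.35% in wild-type cells, and Hlf 0.896 ± 0.277% in overexpression cells and 1.84 ± 0.35% in wild-type cells (SD, n = 3 each). Hlf was thus a small part of the PAR RNA in both genotypes.

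Nfil3, the repressor of PAR sites, stood at 6.66, 10.3 and 6.07 TPM in overexpression libraries, against 7.05, 6.50 and 7.07 TPM in wild-type libraries. Overexpression replicate 2 was far above the rest, and the other overexpression libraries lay around the wild-type ones. The log2 fold change was 0.11 ± 0.18 (SE, 95% interval -0.32 to 0.54). It was -0.097 without overexpression replicate 2. The summed PAR TPM over Nfil3 came to 12.2, 6.76 and 16.0 in overexpression libraries, against 13.5, 14.3 and 12.0 in wild-type libraries (two-sided exact permutation p = 0.8). Overexpression replicate 2, with the most Nfil3 and Cebpb and the least Tef, held the lowest of these ratios.

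Genes of the clock that drives the PAR factors were also read. Of 21 tested clock genes, none passed over all genes tested, and the median was -0.025. At an unadjusted p under 0.05, 1 was higher, a share below the 10.6% of all genes. At that p, 2 were lower, a share close to the 8.94% of all genes. Without overlap, 1 of the 21 was higher, against 14.3% of all genes, and 4 were lower, against 12.9%. The summed TPM of 23 clock genes was 463 to 525 in overexpression libraries and 535 to 579 in wild-type libraries, without overlap. Wee1, a clock-controlled kinase of the cell cycle, had 14.2 ± 1.39 TPM in overexpression cells and 17.7 ± 0.66 TPM in wild-type cells, and Csnk1e, a kinase that phosphorylates PER proteins, 102 ± 14.0 TPM in overexpression cells and 131 ± 13.7 TPM in wild-type cells (SD, n = 3 each). The higher gene, named after its value was seen, was Fbxl21, with 0.46. Csnk1d had -0.17. The core activator genes Arntl and Clock, also chosen after their values were seen, stood at 9.43 to 14.2 and 21.0 to 22.5 TPM in overexpression libraries, against 9.78 to 11.0 and 21.2 to 22.9 TPM in wild-type libraries. Of 6 tested PAR bZIP output genes, 1 was lower at an unadjusted p under 0.05, against 8.94% of all genes, the heme synthesis gene Alas1, with -0.17, while Por, the electron donor of P450 enzymes, had -0.10 and Pdxk, of vitamin B6 metabolism, 0.15.

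The genes that followed the remaining members most closely over the 6 libraries are given as a description. They were Dab2ip (r = 0.984) and Exosc8 (0.982) for Cebpb, Fbl (0.974) and Ankrd27 (0.974) for Cebpd, and Ccnb1ip1 (0.990) for Cebpg. For the PAR group they were Dcaf1 (0.992) and Zfpl1 (0.991) for Hlf, Zfp11 (0.988) and Snurf (0.985) for Dbp, Ncoa6 (0.992) and Trappc12 (0.992) for Tef, and Gpr153 (0.992) and Rem1 (0.990) for Nfil3.

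In chromatin, footprints at all 11 C/EBP and PAR bZIP motif rows were higher in overexpression cells. A footprint score measures how far transposase cuts are depleted at a motif within accessible flanks, and each row is a mean over its sites in the pooled libraries of a genotype, so there is no replicate error. The change score of the authors' deposited table runs from wild type over overexpression and was turned here: a positive value is higher in overexpression. It was above 0 for 11 of 11 rows, against 61.9% of all 879 motifs, and at least 0.1 for 11 of 11, against 51.1%. The median change of the rows was 0.36, with a range of 0.12 to 0.43, and the median of all motifs was 0.11. The rows fall in 4 motif clusters and share sequence, so they are not independent. The authors' deposited p-values of these rows ran from 4.26e-176 to 3.23e-106, but 99.7% of all motifs had one under 0.05. None of the 11 was among the 96 motifs (10.9%) that the authors' deposited table marks as standing out.

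The PAR and NFIL3 rows had changes as large as those of the C/EBP rows. NFIL3 had the largest change, 0.43, with a mean score of 0.205 in overexpression cells and 0.175 in wild-type cells, which placed it 75th of 879. TEF had 0.41, with scores of 0.217 in overexpression cells and 0.188 in wild-type cells, DBP 0.40, with 0.232 in overexpression cells and 0.204 in wild-type cells, and HLF 0.36, with 0.218 in overexpression cells and 0.193 in wild-type cells. Among C/EBP rows, CEBPE had 0.43, CEBPB 0.38, CEBPA 0.36 and CEBPD 0.34. CEBPG had 2 rows, with 0.36 over 6158 sites and 0.33 over 18013 sites. The composite Ddit3::Cebpa row stood apart at 0.12, with 0.217 in overexpression cells and 0.210 in wild-type cells, and ranked 428th, close to the middle of all motifs. ATF4, which shares the cluster of the larger CEBPG row, had 0.29.

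**Figure D4:**
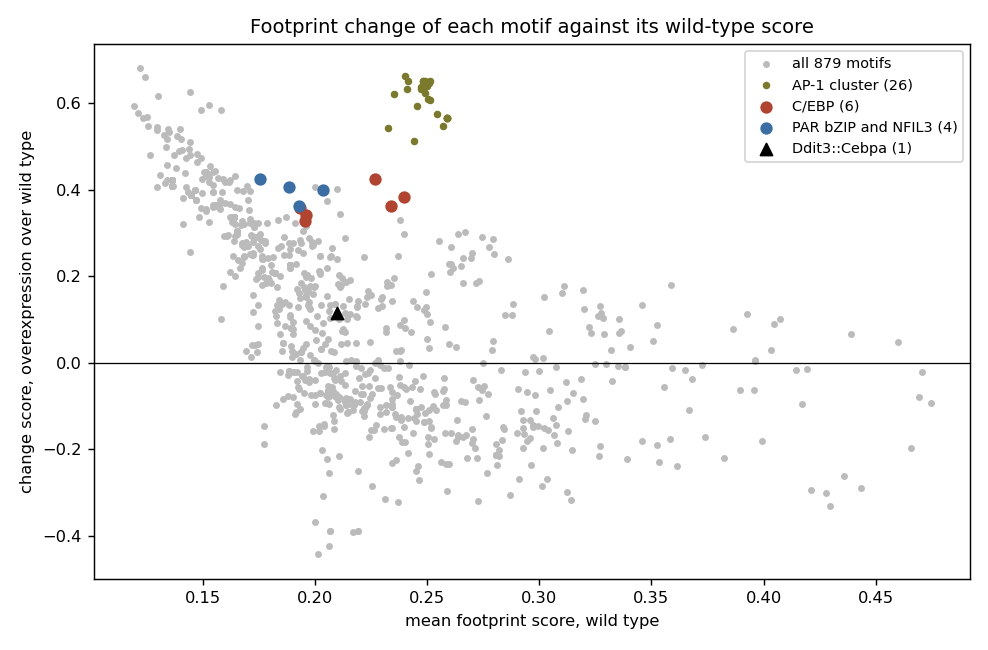
Change score of each of the 879 motifs (overexpression over wild type) against its wild-type mean footprint score, with C/EBP rows in red, PAR bZIP and NFIL3 rows in blue, Ddit3::Cebpa as a black triangle and the AP-1 cluster in olive. The red and blue points lie at 0.33 to 0.43, above most motifs of like score and below the AP-1 cluster, and the triangle lies among the other motifs at 0.12.

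The change was lower at motifs of higher wild-type score (Spearman rho = -0.651, across motifs that share libraries and sequence), and the members' wild-type scores ran from 0.175 to 0.240. Of the 384 other motifs within that score range, 56.5% were higher, 41.4% reached 0.1 and the median change was 0.032. The 26 rows of the AP-1 cluster, also bZIP motifs, had a median of 0.62 and a lowest value of 0.51. A set of 12 ATF and CREB rows, chosen after the values were seen, had a median of 0.11, with 7 higher.

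Bound sites were counted as well. The number of sites called bound was higher for all 11 rows, against 62.8% of all motifs. CEBPB had the largest shares, 14.9% of 3724 sites in overexpression cells (95% Wilson interval 13.8 to 16.1) and 13.2% in wild-type cells (12.2 to 14.4). NFIL3 had 7.80% of 14556 sites in overexpression cells (7.37 to 8.24) and 6.60% in wild-type cells (6.20 to 7.01). HLF had 9.24% of 14280 sites in overexpression cells (8.78 to 9.73) and 8.21% in wild-type cells (7.78 to 8.68). CEBPD had 9.31% of 17982 sites in overexpression cells (8.90 to 9.75) and 8.46% in wild-type cells (8.07 to 8.88). The intervals of NFIL3, HLF and CEBPD lay apart, and those of the other 8 rows overlapped, with differences of 0.237 percentage points for Ddit3::Cebpa to 1.66 for CEBPB. The intervals cover counting error only, and the same sites were searched in both genotypes.

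**Figure D5:**
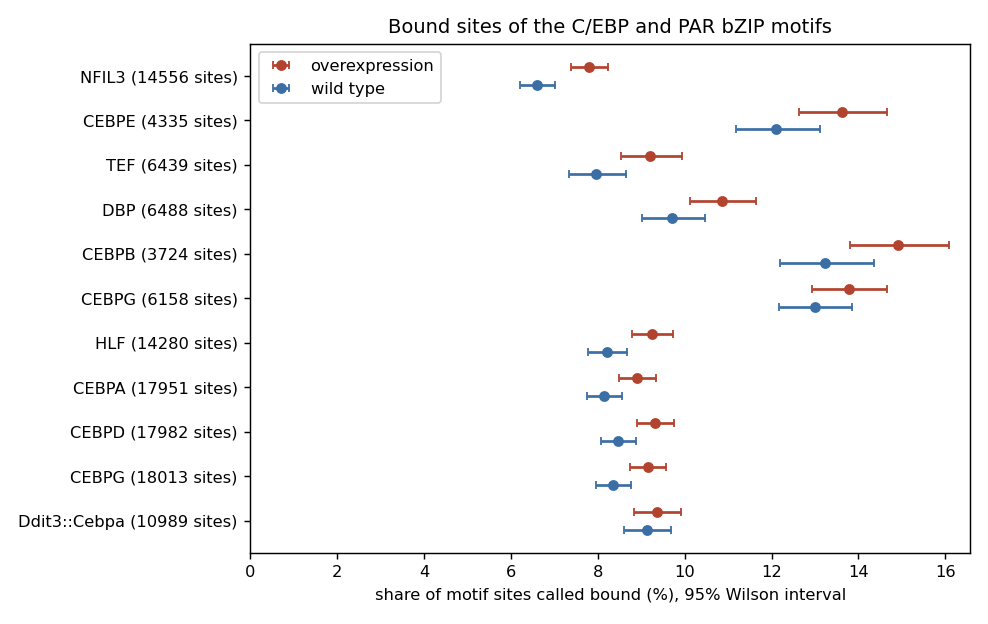
Share of motif sites called bound for each of the 11 rows, in overexpression cells (red, upper point) and wild-type cells (blue, lower point), with 95% Wilson intervals and the number of sites in brackets. The overexpression point lies to the right in every row, by 0.237 (Ddit3::Cebpa) to 1.66 (CEBPB) percentage points.

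Motif and RNA values of the same name can be set side by side. The HLF row had a change of 0.36 while Hlf RNA had a log2 fold change of -0.63, and the CEBPE row had 0.43 while Cebpe RNA was at 0 in all wild-type libraries. The NFIL3 and TEF rows, with 0.43 and 0.41, belong to genes with RNA changes of 0.11 and -0.13. The Ddit3::Cebpa row, with the smallest change, joins the 2 members with the highest RNA log2 fold changes, 0.37 and 1.43. Motifs of 1 cluster cannot tell apart the factors that bind them.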

How the data were processed

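RNA was measured in 3 overexpression and 3 wild-type mice and ATAC-seq in 2 of each. The genotype label gave the groups and the mouse number in the title the replicate; overexpression RNA libraries have titles starting in WT, against their genotype label. The authors deposited TPM per gene, made with kallisto per the labels, with a sum of 1000000 in each library. The submitters' processing notes name mm10; no version or annotation is stated there. TPM are relative, and kallisto divides reads between similar transcripts. The authors deposited a footprint table in the TOBIAS BINDetect layout, per the file headers, with a mean footprint score (a signal) per genotype, counts of sites and bound sites, a change score and a p-value per motif, over pooled libraries.

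Genes averaging 1 TPM or more entered a two-sided test on log2(TPM + 1), fitted with lmFit and trended eBayes of limma 3.58.1 (R 4.3.3) and Benjamini-Hochberg adjusted over all tested genes, with a threshold of 0.05. Exact permutation tests, Wilson intervals and promoter searches used Python 3.11.15, scipy 1.17.1, numpy 2.4.6 and pandas 2.3.3. In simulated data of 13131 genes of this comparison, the test found 80 of 100 genes simulated with a log2 change of 1, 98 of 100 with 2, and made 7 false calls. The simulation drew independent noise of equal spread in both genotypes, and changed only genes with a mean log2(TPM + 1) above 2. In the data, Cebpa had an SD of 2.49 TPM in overexpression cells and 0.27 TPM in wild-type cells. Many genes also varied together, so the simulated rates do not carry over to the members. The lists (C/EBP regulators, stress response, acute phase, adipogenic, myeloid, clock, PAR output, and macrophage, endothelial, smooth muscle, fibroblast, adipocyte and hepatocyte markers) were described by counts and medians. Of the 10 fibroblast markers 6 were tested, with a median of 0.0044. Named list genes are the 2 of smallest p and the 2 of highest mean TPM in each list, and followers the 2 of highest correlation, predicted gene models left out; 1 gene that this rule takes is not reported here. The members and lists were chosen with earlier results of these data known. Promoters and positions came from RefSeq (GRCm38.p6). Alternatives were other pseudocounts, filters, scalings, weights, no trend, a block by mouse number and leaving out each library.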

Additional observations from a re-analysis of the deposited data

How the results depend on the processing

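Over 15 alternatives the count of genes called, 2 in the main test, was 1 with a filter of 5 TPM, 2728 with array weights per library, and 1 to 828 with 1 library left out, highest without overexpression replicate 3. Of the 9 members, 0 were called in the main test. With array weights 3 members were called, where 20.8% of all genes were called. With 1 library left out, 0 to 1 were called. The 1 was Cebpa without overexpression replicate 3, where 6.3% of all genes were called. Cebpa and Hlf, below the filter of 5 TPM, were not tested with that filter. Mouse numbers name different animals, and same-numbered libraries deviated together with correlations of -0.022, 0.058 and 0.018, so the numbers share only a name; the fit with the replicate block called 1 gene and no member. No paired analysis was possible for the pooled footprints.

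Cebpa and Ddit3 stayed positive and Hlf and Dbp negative in every alternative run. For Cebpa, Ddit3 and Hlf, whose libraries did not overlap, leaving out or weighting libraries could not turn the sign. Their stable sign therefore adds nothing to the lack of overlap. With 1 library left out the log2 fold change ran from -0.014 to 0.17 for Cebpb, -0.044 to 0.058 for Cebpd, -0.11 to 0.053 for Cebpg, -0.097 to 0.24 for Nfil3, -0.25 to -0.080 for Dbp and -0.26 to 0.0076 for Tef, and with array weights it was -0.0083 for Cebpd, 0.059 for Cebpg and -0.013 for Nfil3. The cause of these turns was not tested. The median of the acute-phase list was -0.27 with a filter of 5 TPM, which left 5 genes, and that of the fibroblast markers -0.46 with that filter, which left 3, -0.097 under quantile normalisation and -0.086 with array weights. The median of the myeloid targets was 0.68 with no filter on low genes, which added 8 genes, and that of the PAR output genes ran from -0.15 to -0.040 with 1 library left out. All footprint rows were higher (100%) under each alternative. Each alternative re-expresses the same pooled libraries, so this share was nearly fixed in advance and adds no support. The median change of the rows was 0.17 as the log2 ratio of mean scores and 0.35 with a single value per motif cluster. Relative to the median of all motifs it was 0.26. Footprints have no replicate values, and RNA depth is unknown.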
